A study of Arabidopsis thaliana with 64 samples.

Results

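The data of 10 class III peroxidase (PRX) genes are described here, of the 26716 Arabidopsis genes with a probe on the array: PRX5 (AT1G14550), PRX10 (AT1G49570), PRX33 (AT3G49110), PRX34 (AT3G49120), PRX37 (AT4G08770), PRX49 (AT4G36430), PRX52 (AT5G05340), PRX53 (AT5G06720), PRX54 (AT5G06730) and PRX70 (AT5G64110). They were taken by locus, each with 1 probe, from PRX genes that the study selected on measured values: induction by Pi deficiency in WT roots of 3 sets of arrays, B light included, no induction under R light, and a lower level under R than B light. No threshold of that choice is given in the sources used here. The values that chose the genes were thus the levels of these genes on the WT, B-light and R-light root arrays. Those arrays that chose the genes are therefore described without a test. Tests were kept for the Pi response in roots of the lines and for shoots.

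Total RNA was hybridised to 64 one-colour arrays in 24 groups. In the first white-light set, the groups were hy5-215 under Pi deficiency (−Pi), hy5-215 under Pi sufficiency (+Pi), WT Col-0 under −Pi and WT Col-0 under +Pi. The second white-light set had 35S:BBX32-SRDX in place of hy5-215, with its own WT plants. In the light set, WT Col-0 was grown under R or B light, each under −Pi and +Pi. Roots and shoots (labelled leaf in the white-light sets) were separate groups throughout, with 3 arrays a group in the white-light sets and 2 in the light set. According to the labels all plants grew on MS-based agar at 23 °C with 16 h of light a day. By the same labels plants of the white-light sets were 4 weeks old, and those of the light set were 3 weeks old. The methods differ, with a slightly lower temperature, and light around the clock for B and R light. They describe younger seedlings and name no age for the arrays. hy5-215 is a single mutant allele of HY5, a bZIP factor of light signalling. In 35S:BBX32-SRDX, a constitutive viral promoter drives the B-box protein BBX32 fused to the SRDX repression domain in all tissues, and the sources used here do not say which transgenic line was put on the arrays. Whole organs were sampled, so fewer cells of a type and less RNA per cell cannot be told apart.

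Class III peroxidases are secreted heme enzymes of plants that use hydrogen peroxide. In the wall they oxidise phenolics and wall proteins into cross-links, which stiffens the wall and ends cell expansion, and they can also produce reactive oxygen. In the root tip, low Pi is known to act through the STOP1 factor, the malate channel ALMT1 and the ferroxidase LPR1, with iron in the apoplast and peroxidase activity in the wall of elongating cells. B light is perceived by cryptochromes and phototropins, and HY5 acts below the photoreceptors.

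Levels are log2 of the array's processed signal minus the 75th percentile of that array, so 0 is the level of the probe at that percentile, and −1 is a signal 2-fold below it. A level belongs to 1 probe and is compared between groups of that probe only. The signal at the 75th percentile was 2417 to 7651 in the white-light sets and 79.2 to 266 in the light set, where 45.0% to 66.7% of the probes were well above background, against 68.5% to 83.7% in the white-light sets. The 5 green-tissue markers (RBCS1A, LHCB1.3, LHCA1, PSAD1 and PSBO1) had levels of 6.07 to 10.29 in shoots, and the root-hair genes COBL9 and EXPA7 had levels of −0.91 to 2.4 in roots and −10.05 to −2.53 in shoots. The organ labels fitted the green and root-hair markers, but all 5 green markers were well above background in every root group too. The other root markers listed, NRT2.1 and IRT1, overlapped between roots and shoots in every set and did not separate the organs. In the light set NRT2.1 had levels of −5.80 to −3.55 in roots and −5.99 to −4.48 in shoots. IRT1 had −5.40 to −0.97 in roots and −4.91 to −2.95 in shoots of that set.

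In WT roots under −Pi, 7 genes (PRX5, PRX10, PRX37, PRX49, PRX52, PRX54 and PRX70) had higher levels on every −Pi array than on any +Pi array in both white-light sets. PRX53 did so in the hy5-215 set only, and PRX33 and PRX34 in neither. Under B light the −Pi arrays of all 10 lay above the +Pi arrays. Under R light PRX34 and PRX70 alone had both −Pi arrays above both +Pi arrays. These comparisons of single arrays are not the fold changes that the study reports, so they do not show that a gene failed its criteria. By group means, PRX53 was higher under −Pi in the WT roots of both white-light sets. PRX33 differed by −0.15 on the log2 scale in the hy5-215 set, a value that rests on a single +Pi array, and by 0.71 in the other. PRX34 differed by 0.19 and −0.09. Under R light, the −Pi means of PRX34 and PRX70 were above their +Pi means. Because these arrays chose the genes, the values below describe the choice.

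PRX33 and PRX34 lie close together in the genome, encode closely similar peroxidases and are known in Arabidopsis for the oxidative burst of immune responses. PRX33 in the WT roots of the hy5-215 set had levels of −3.65, −3.9 and −3.83 under −Pi and −5.94, −0.45 and −4.53 under +Pi. The +Pi array of replicate 2 stood far above the other 2, and the difference between −Pi and +Pi was −0.15 ± 1.08 on the log2 scale (SE) with it and 1.44 without it, an alternative added after the data were seen. The summed signal of the 5 green markers on the 3 arrays of that +Pi group was 27.4 to 32.8 times the 75th percentile. PRX33 in the WT roots of the 35S:BBX32-SRDX set had levels of −4.47, −3.99 and −4.82 under −Pi and −4.81, −5.2 and −5.41 under +Pi, a difference of 0.71 ± 0.22 between groups that overlapped. In the light set, −4.79 and −6.58 under R light with −Pi and −3.78 and −3.92 under R light with +Pi stood against −2.47 and −2.58 under B light with −Pi and −3.81 and −5.26 under B light with +Pi. Only the B-light −Pi arrays were well above background, so the differences are bounds: under −Pi PRX33 was at least 2.99-fold lower under R than under B light, and under B light it was at least 2.18-fold higher under −Pi than under +Pi, a direction that turned with the other background correction (normexp), where the fitted difference was −0.06. A bound sets the mean of the brighter group against the lowest signal that counted as well above background on each array, or the dim probe's own signal where that was higher.

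PRX34 had levels of 4.12, 3.61 and 3.64 under −Pi and 4.01, 3.35 and 3.45 under +Pi in the WT roots of the hy5-215 set. In the WT roots of the 35S:BBX32-SRDX set the levels were 4.05, 3.98 and 3.81 under −Pi and 4.15, 4.09 and 3.85 under +Pi. The groups overlapped in both sets, with differences of 0.19 ± 0.34 and −0.09 ± 0.19, the second of which changed sign when arrays were scaled to the median of their detected probes (0.06). The light set gave 2.15 and 2.16 under R light with −Pi and 1.69 and 1.93 under R light with +Pi, against 3.1 and 3.39 under B light with −Pi and 2.04 and 2.1 under B light with +Pi. PRX34 was thus higher under −Pi by 1.17 ± 0.18 in B light, and its −Pi level in R light was lower, at −1.08 ± 0.18 relative to B light.

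**Figure D1:**
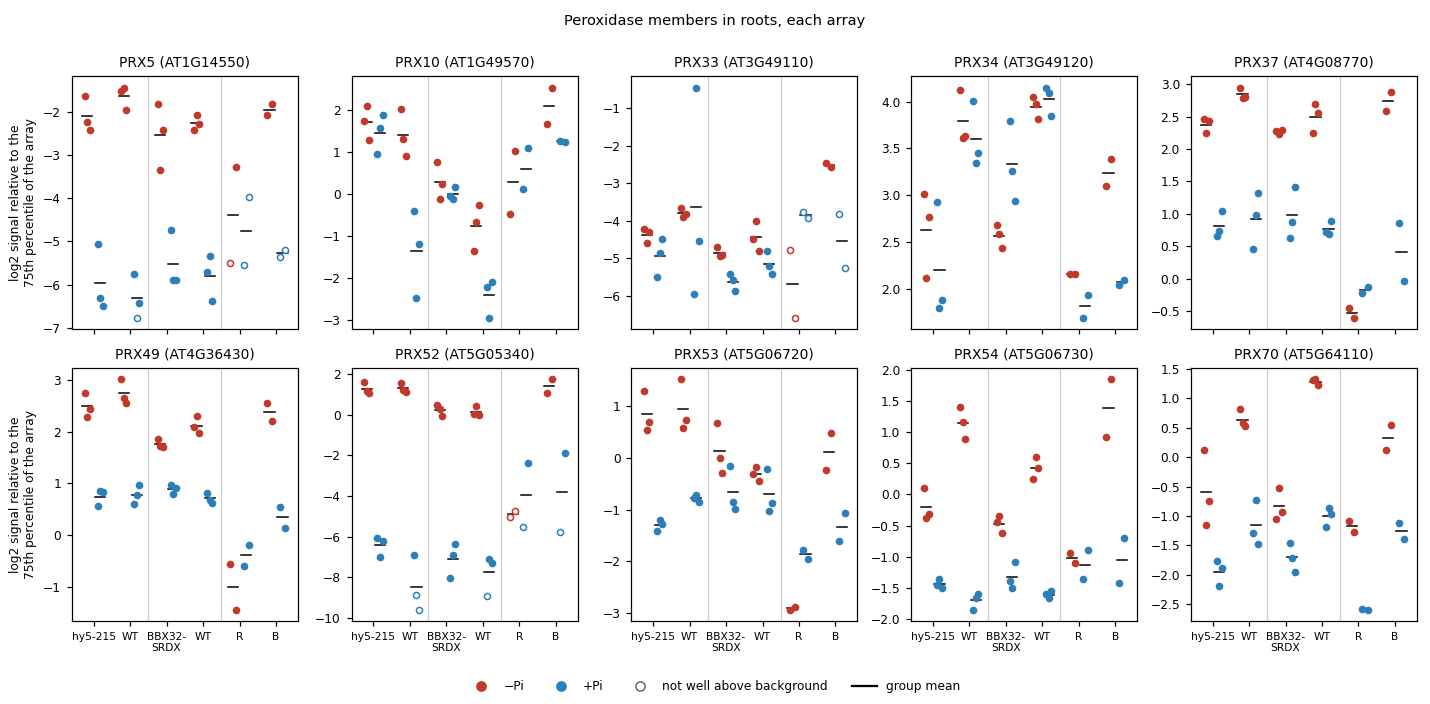
Level of each gene on every root array (y axis, log2 signal relative to the 75th percentile of the array), by line or light (x axis); red symbols are −Pi, blue symbols +Pi, open symbols were not well above background and black lines are group means. PRX52 spans the widest range of levels, 1.55, 1.21 and 1.1 under −Pi against −6.92, −8.87 and −9.59 under +Pi in the WT roots of the hy5-215 set, and 1 +Pi array of PRX33 in that WT stands at −0.45.

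PRX52 and PRX37 are peroxidases with known work in the wall: PRX52 takes part in lignin formation of Arabidopsis stems, and over-expression of PRX37 stunts plants. PRX52 had levels of 1.55, 1.21 and 1.1 under −Pi and −6.92, −8.87 and −9.59 under +Pi in the WT roots of the hy5-215 set. In the WT of the 35S:BBX32-SRDX set they were 0.01, 0.4 and −0.02 under −Pi and −8.92, −7.08 and −7.27 under +Pi. No +Pi array came near the −Pi arrays, and of the 6 +Pi arrays 3 were well above background. The differences were 9.75 ± 0.56 and 7.89 ± 0.5. Under R light PRX52 had levels of −5.03 and −4.73 with −Pi and −5.54 and −2.39 with +Pi, whereas under B light it had 1.08 and 1.73 with −Pi and −5.75 and −1.86 with +Pi. In each +Pi light group 1 array was high and the other was not well above background, so the B-light difference of 5.21 carried an SE of 1.27. Both R-light −Pi arrays were not well above background, which made PRX52 at least 45.6-fold lower under R than under B light.

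PRX37 showed 2.95, 2.79 and 2.81 under −Pi and 0.45, 0.98 and 1.32 under +Pi in the WT roots of the hy5-215 set, and in the 35S:BBX32-SRDX set its WT levels were 2.24, 2.69 and 2.56 under −Pi and 0.72, 0.69 and 0.88 under +Pi. Its light-set levels were −0.45 and −0.61 under R light with −Pi and −0.22 and −0.13 under R light with +Pi, against 2.59 and 2.89 under B light with −Pi and 0.86 and −0.03 under B light with +Pi. The −Pi arrays stood above the +Pi arrays in both WT sets (1.93 ± 0.19 and 1.74 ± 0.18) and in B light (2.32 ± 0.29), and below them in R light (−0.35 ± 0.29). Under −Pi, the level in R light was −3.27 ± 0.29 relative to B light.

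PRX53 and PRX54 are neighbours on the chromosome. PRX53 had 1.52, 0.59 and 0.73 under −Pi and −0.76, −0.72 and −0.86 under +Pi in the WT of the hy5-215 set. The WT of the 35S:BBX32-SRDX set had −0.32, −0.18 and −0.44 under −Pi and −0.21, −1.03 and −0.87 under +Pi. The groups were apart in the first WT (1.73 ± 0.25) and overlapped in the second (0.39 ± 0.3). In light, PRX53 had −2.93 and −2.87 under R with −Pi and −1.77 and −1.95 under R with +Pi, against −0.23 and 0.48 under B with −Pi and −1.61 and −1.07 under B with +Pi. Its lowest levels in the light set were those of R light with −Pi, −1.04 ± 0.28 relative to +Pi and −3.03 ± 0.28 relative to B light.

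PRX54 had 1.4, 1.16 and 0.89 under −Pi and −1.85, −1.66 and −1.6 under +Pi in the WT of the hy5-215 set, and 0.25, 0.59 and 0.43 under −Pi and −1.6, −1.66 and −1.56 under +Pi in the WT of the 35S:BBX32-SRDX set. Its arrays did not overlap in either (2.85 ± 0.15 and 2.03 ± 0.13). The R-light levels were −0.94 and −1.11 with −Pi and −1.35 and −0.9 with +Pi, and the B-light levels 0.92 and 1.84 with −Pi and −1.42 and −0.7 with +Pi. The R-light groups overlapped and the B-light groups differed by 2.44 ± 0.35, and under −Pi the R-light level was −2.41 ± 0.35 relative to B light.

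PRX5, PRX10, PRX49 and PRX70 are less well known. PRX5 had levels of −1.51, −1.42 and −1.95 under −Pi and −5.75, −6.77 and −6.43 under +Pi in the WT roots of the hy5-215 set and −2.42, −2.07 and −2.26 under −Pi and −5.71, −5.34 and −6.39 under +Pi in those of the 35S:BBX32-SRDX set. These were differences of 4.69 ± 0.4 and 3.56 ± 0.43, with no overlap. Under R light PRX5 had −5.51 and −3.26 with −Pi and −5.54 and −3.96 with +Pi, and under B light −2.07 and −1.8 with −Pi and −5.35 and −5.2 with +Pi. The B-light −Pi arrays and 1 R-light −Pi array were well above background, which made PRX5 at least 3.27-fold higher under −Pi than +Pi in B light. Under −Pi its level in R light was −2.45 ± 0.71 relative to B light.

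PRX10 had 2.01, 1.3 and 0.91 under −Pi and −0.42, −2.49 and −1.19 under +Pi in the WT of the hy5-215 set, and −1.37, −0.68 and −0.27 under −Pi and −2.21, −2.95 and −2.1 under +Pi in the WT of the 35S:BBX32-SRDX set. Both WTs had higher −Pi arrays (2.77 ± 0.5 and 1.65 ± 0.32). In the light set PRX10 had −0.48 and 1.01 under R with −Pi, 0.1 and 1.08 under R with +Pi, 1.67 and 2.53 under B with −Pi and 1.25 and 1.24 under B with +Pi. Its B-light difference of 0.85 ± 0.52 was the smallest of those measured on both sides, and under −Pi the level in R light was −1.83 ± 0.52 relative to B light.

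PRX49 had 3.01, 2.65 and 2.56 under −Pi and 0.59, 0.77 and 0.97 under +Pi in the WT of the hy5-215 set, and 2.08, 2.29 and 1.96 under −Pi and 0.82, 0.68 and 0.62 under +Pi in the WT of the 35S:BBX32-SRDX set. These differed by 1.96 ± 0.16 and 1.41 ± 0.1. Its light levels were −0.57 and −1.45 under R with −Pi and −0.6 and −0.2 under R with +Pi, against 2.55 and 2.21 under B with −Pi and 0.55 and 0.14 under B with +Pi. B light gave a difference of 2.04 ± 0.32, the R-light groups overlapped, and under −Pi the level in R light was −3.39 ± 0.32 relative to B light.

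PRX70 had 0.82, 0.57 and 0.52 under −Pi and −1.28, −0.72 and −1.47 under +Pi in the WT of the hy5-215 set, and 1.31, 1.32 and 1.22 under −Pi and −1.19, −0.86 and −0.97 under +Pi in the WT of the 35S:BBX32-SRDX set. The differences were 1.8 ± 0.3 and 2.29 ± 0.16. R light gave −1.09 and −1.26 with −Pi and −2.58 and −2.59 with +Pi, and B light 0.12 and 0.54 with −Pi and −1.12 and −1.4 with +Pi. The −Pi level of PRX70 was higher by 1.41 ± 0.21 in R light and by 1.59 ± 0.21 in B light, and R light lay below B light both under −Pi (−1.5 ± 0.21) and under +Pi (−1.33 ± 0.21).

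Over the 10 genes the median difference between −Pi and +Pi roots was 1.95 in the WT of the hy5-215 set, 1.69 in the WT of the 35S:BBX32-SRDX set, −0.34 under R light and 2.03 under B light, or −0.23 and 1.65 under R and B light with the bounds in place of the fitted values. Over all genes tested the medians in the same 4 comparisons were 0.01, 0.02, −0.06 and −0.08. Under +Pi the R and B light levels of the 10 genes lay closer together, with a median difference of −0.39, than under −Pi, where the median was −2.74, or −2.43 with bounds. The green markers of the same roots summed to 6.82 to 8.98 times the 75th percentile under R light with −Pi and 16.0 to 27.2 times under B light with −Pi, and their part in the differences was not tested.

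The criteria stated for the choice do not name the roots of the lines, although the genes were taken up with earlier results of these data known. The tests below ask for a Pi response within each line. In hy5-215 roots 7 of the 10 genes rose under −Pi, the largest by 7.70 on the log2 scale (PRX52), and the others did not pass the test. Called here means an adjusted p under 0.05 over all genes tested, in limma, with a change of more than 2-fold. Of all genes tested in this comparison, 3.53% were called.

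PRX52 had levels of 1.6, 1.17 and 1.05 under −Pi and −6.04, −7.01 and −6.22 under +Pi in hy5-215 roots (7.7 ± 0.56, adjusted p = 0.000141). PRX5 had −1.62, −2.22 and −2.42 under −Pi and −5.05, −6.32 and −6.49 under +Pi (3.87 ± 0.4, adjusted p = 0.000453). PRX53 had 1.31, 0.55 and 0.7 under −Pi and −1.4, −1.21 and −1.28 under +Pi (2.15 ± 0.25, adjusted p = 0.000778). None of these 3 overlapped between −Pi and +Pi. PRX49 had 2.74, 2.28 and 2.44 under −Pi and 0.55, 0.84 and 0.83 under +Pi (1.75 ± 0.16, adjusted p = 0.000291). PRX37 had 2.46, 2.24 and 2.43 under −Pi and 0.66, 0.74 and 1.04 under +Pi (1.57 ± 0.19, adjusted p = 0.00107). Their spread was small beside the change.

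PRX54 had 0.1, −0.38 and −0.32 under −Pi and −1.45, −1.35 and −1.51 under +Pi in hy5-215 roots (1.23 ± 0.15, adjusted p = 0.00115), and PRX70 had 0.12, −1.15 and −0.74 under −Pi and −1.77, −2.19 and −1.89 under +Pi (1.36 ± 0.3, adjusted p = 0.0166). The PRX70 call was lost when hy5-215 +Pi replicate 2 was left out. The values that did not pass were 0.25 ± 0.5 for PRX10, 0.58 ± 1.08 for PRX33 and 0.43 ± 0.34 for PRX34, and the −Pi and +Pi arrays of all 3 overlapped. The SE was estimated over the 4 root groups of the set, WT included. For PRX33 the SD was 2.85 in WT under +Pi, against 0.19 under −Pi and 0.52 under +Pi in hy5-215. The WT +Pi arrays thus widened the SE of PRX33, and its test says little about hy5-215 alone. PRX10 had 1.73, 2.1 and 1.28 under −Pi and 0.93, 1.57 and 1.86 under +Pi in hy5-215 roots, so that its +Pi arrays were as high as its −Pi arrays.

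In 35S:BBX32-SRDX roots 3 of the 10 genes were called, PRX52, PRX5 and PRX37, all higher under −Pi, where 3.3% of all genes tested were called. PRX52 had levels of 0.46, 0.27 and −0.07 under −Pi and −8.04, −6.92 and −6.36 under +Pi (7.33 ± 0.5, adjusted p = 0.000112). PRX5 had −1.8, −3.35 and −2.41 under −Pi and −4.74, −5.9 and −5.89 under +Pi (2.99 ± 0.43, adjusted p = 0.00358). PRX37 had 2.28, 2.23 and 2.29 under −Pi and 0.63, 0.88 and 1.41 under +Pi (1.29 ± 0.18, adjusted p = 0.00347). All 3 were apart on every array. PRX49, PRX54 and PRX70 also passed the adjusted p but not 2-fold, with 0.87 ± 0.1, 0.86 ± 0.13 and 0.87 ± 0.16. PRX34 went the other way, with 2.68, 2.58 and 2.43 under −Pi and 3.79, 3.26 and 2.94 under +Pi, a difference of −0.77 ± 0.19 (adjusted p = 0.0407) that was also under 2-fold. Leaving out any 1 array of either group kept 3 calls.

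Set against WT roots, the lines differed at 4 genes in ways that recurred in both sets. These values describe, since the WT arrays are among those that chose the genes. PRX54 was lower under −Pi in hy5-215 roots (0.1, −0.38 and −0.32) than in their WT (1.4, 1.16 and 0.89), a difference of −1.35 ± 0.15, and in 35S:BBX32-SRDX roots (−0.45, −0.35 and −0.61) than in their WT (0.25, 0.59 and 0.43), a difference of −0.89 ± 0.13. Under +Pi PRX54 was slightly higher in both lines (0.26 ± 0.15 and 0.28 ± 0.13). PRX70 under −Pi was −1.23 ± 0.3 in hy5-215 and −2.12 ± 0.16 in 35S:BBX32-SRDX relative to WT, and under +Pi it was −0.79 ± 0.3 and −0.7 ± 0.16.

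PRX34 lay below WT in both lines at both Pi levels, at −1.16 ± 0.34 under −Pi and −1.4 ± 0.34 under +Pi in hy5-215, and at −1.38 ± 0.19 under −Pi and −0.7 ± 0.19 under +Pi in 35S:BBX32-SRDX. No array of either line reached its WT arrays. PRX10 did the reverse under +Pi: its levels were 0.93, 1.57 and 1.86 in hy5-215 and −0.42, −2.49 and −1.19 in WT (2.82 ± 0.5), and −0.05, −0.12 and 0.17 in 35S:BBX32-SRDX and −2.21, −2.95 and −2.1 in WT (2.42 ± 0.32). Under −Pi the difference of PRX10 from WT was 0.3 ± 0.5 in hy5-215 and 1.06 ± 0.32 in 35S:BBX32-SRDX.

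PRX52 and PRX5, which had the 2 largest WT responses in both sets, hardly differed between lines and WT under −Pi. PRX52 was at −0.01 ± 0.56 in hy5-215 and 0.09 ± 0.5 in 35S:BBX32-SRDX, and PRX5 at −0.46 ± 0.4 and −0.27 ± 0.43, with overlapping arrays in each. Under +Pi the mean of PRX52 was −6.43 in hy5-215 and −8.46 in its WT. It was −7.11 in 35S:BBX32-SRDX and −7.76 in its WT. Of the 3 WT +Pi arrays, only 1 in the first set and 2 in the second were well above background. Under −Pi PRX37, PRX49, PRX53 and PRX33 ranged between −0.57 and 0.45. The hy5-215 arrays of PRX37 and PRX33 and the 35S:BBX32-SRDX arrays of PRX49 lay wholly below their WT arrays, and the others of these overlapped. Of the 10 genes, 9 were lower than WT and 1 higher in hy5-215 roots under −Pi (median −0.47). In 35S:BBX32-SRDX roots 7 were lower and 3 higher (median −0.31). The green markers moved with the same groups: their summed signal on −Pi root arrays was 2.1 to 2.59 times the 75th percentile in hy5-215 and 8.36 to 25.8 times in WT, and 3.07 to 6.53 times in 35S:BBX32-SRDX and 12.5 to 29.2 times in WT. Of the 4 root markers (COBL9, EXPA7, NRT2.1 and IRT1), 3 were well above background on every −Pi array of these groups, with summed signals of 5.69 to 7.59 in hy5-215 and 6.66 to 7.30 in WT, and 5.2 to 8.07 in 35S:BBX32-SRDX and 9.09 to 9.99 in WT. The paper reports lower expression of photosynthesis genes in roots of both lines. The marker signal thus cannot be read as an amount of tissue, and its part in the differences was not tested.

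**Figure D2:**
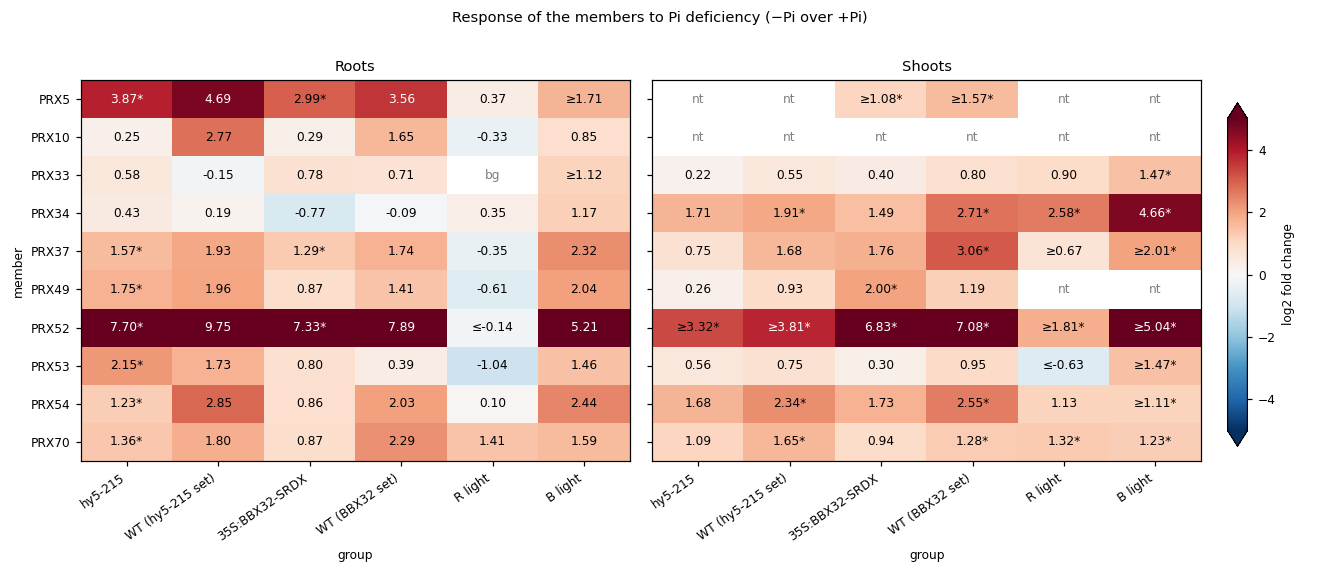
Log2 fold change of −Pi over +Pi for each gene (rows) in each group (columns) of roots and shoots; ≥ and ≤ give the log2 of a bound, nt marks a gene not tested, bg a gene not well above background in both groups, and an asterisk a call in the comparisons that were tested. PRX52 has the deepest colour in every group but R-light roots and R-light shoots, and the R-light root column holds values of both signs.

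In shoots the genes were less often detected, and PRX10 passed the filter in no set. PRX5 passed it in the 35S:BBX32-SRDX set only, and PRX49 in the white-light sets only. To pass, a gene had to be well above background on every array of 1 or more groups, so a gene that passed only through a group where it is high was bound to differ. PRX52 in all 3 sets, PRX54 in the hy5-215 and light sets, PRX5 in the 35S:BBX32-SRDX set and PRX37 in the light set passed through −Pi groups only, and PRX53 in the light set through B-light −Pi and R-light +Pi. Counts of calls below are therefore over the genes that were well above background on every array of both groups compared, called measured genes here, and the responses of the others are descriptions without a p. PRX33 was at levels of −0.60 to 1.17 in shoots of the white-light sets, whereas in their roots it was at −5.94 to −3.65 apart from the 1 array named above.

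In the WT shoots of the hy5-215 set, 2 of the 6 measured genes rose under −Pi (PRX34 and PRX70), with 7.39% of all genes called. PRX52 had levels of −1.73, −3.36 and −3.49 under −Pi and −9.14, −8.07 and −7.65 under +Pi, where no +Pi array was well above background, so that it was at least 14-fold higher. PRX34 had 4.67, 3.12 and 3.1 under −Pi and 1.97, 1.37 and 1.8 under +Pi (1.91 ± 0.42, adjusted p = 0.0126). PRX54 had −3.07, −3.87 and −4.47 under −Pi and −6.05, −6.52 and −5.86 under +Pi (2.34 ± 0.39), with 2 of the 3 +Pi arrays well above background. On all 3 genes the −Pi array of replicate 1 was the highest. PRX70 had 1.55, 2.18 and 2.26 under −Pi and 0.04, 0.84 and 0.15 under +Pi (1.65 ± 0.27, adjusted p = 0.00348). The same −Pi array had the most root-marker signal, −2.68 for COBL9 and −3.83 for EXPA7, against −4.75 and −6.09 for COBL9 and −6.03 and −9.05 for EXPA7 on the other −Pi arrays; the 4 root markers summed to 0.0253 to 0.232 times the 75th percentile over the −Pi group and 0.0153 to 0.0417 times over the +Pi group. Without that array PRX34 and PRX70 were still called. Without WT +Pi replicate 2 the PRX34 call was lost, without WT +Pi replicate 3 PRX37 and PRX49 were added, without WT −Pi replicate 3 PRX49 was added, and with the replicate block PRX37 was added.

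In hy5-215 shoots 0 of the 6 measured genes were called with limma without the replicate block, 2 had an unadjusted p under 0.05, and 1.54% of all genes were called. The levels of PRX52 were −3.39, −3.69 and −4.31 under −Pi and −9.44, −9.56 and −8.71 under +Pi, with no +Pi array well above background, which made it at least 9.96-fold higher. PRX34 and PRX70 had log2 fold changes of 1.71 ± 0.42 and 1.09 ± 0.27 with adjusted p of 0.0677 and 0.0699, and both were called with the replicate block.

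In the WT shoots of the 35S:BBX32-SRDX set 4 of the 7 measured genes rose under −Pi (PRX34, PRX37, PRX54 and PRX70), with 7.74% of all genes called. PRX52 had levels of 0.19, −0.71 and −2.84 under −Pi and −7.09, −9.37 and −8.15 under +Pi, of which 1 +Pi array was well above background (7.08 ± 0.88). PRX5 had −4.75, −6.33 and −6.16 under −Pi and −9.54, −9.13 and −9.23 under +Pi, all 3 of the +Pi arrays at background, at least 2.97-fold higher. PRX37 had 0.4, 0.48 and −0.48 under −Pi and −3.77, −2.76 and −2.27 under +Pi (3.06 ± 0.49, adjusted p = 0.00302). The arrays of these 3 did not overlap. PRX34 had 5.23, 4.14 and 3.56 under −Pi and 1.92, 1.65 and 1.22 under +Pi (2.71 ± 0.43, adjusted p = 0.00292). PRX54 had −1.93, −3.19 and −4.05 under −Pi and −5.08, −5.77 and −5.98 under +Pi (2.55 ± 0.54, adjusted p = 0.0110). PRX70 had 1.93, 2.44 and 2.41 under −Pi and 0.5, 1.55 and 0.88 under +Pi (1.28 ± 0.33, adjusted p = 0.0227). The −Pi array of replicate 1 was the highest for PRX5, PRX34, PRX52 and PRX54. PRX70 was not called without WT +Pi replicate 1, WT +Pi replicate 3 or WT −Pi replicate 2. Without the last of these PRX53 was called in its place. The replicate block added PRX49.

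In 35S:BBX32-SRDX shoots 1 of the 7 measured genes was called, PRX49, with 2.8% of all genes called. PRX52 had levels of −0.42, −0.67 and −2.45 under −Pi and −9.08, −7.56 and −7.38 under +Pi (6.83 ± 0.88), where 2 of the 3 +Pi arrays were well above background. PRX5 had −5.81, −6.78 and −7.34 under −Pi and −9.32, −9.68 and −9.47 under +Pi, the +Pi arrays at background, at least 2.11-fold higher. PRX49 had −2.52, −1.97 and −2.8 under −Pi and −5.33, −4.42 and −3.54 under +Pi (2.0 ± 0.4, adjusted p = 0.0207). None overlapped, and PRX49 was not called without −Pi replicate 1, −Pi replicate 2 or +Pi replicate 2 of this line, while PRX37 was added without +Pi replicate 3. With the replicate block PRX34 and PRX54 were added.

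**Figure D3:**
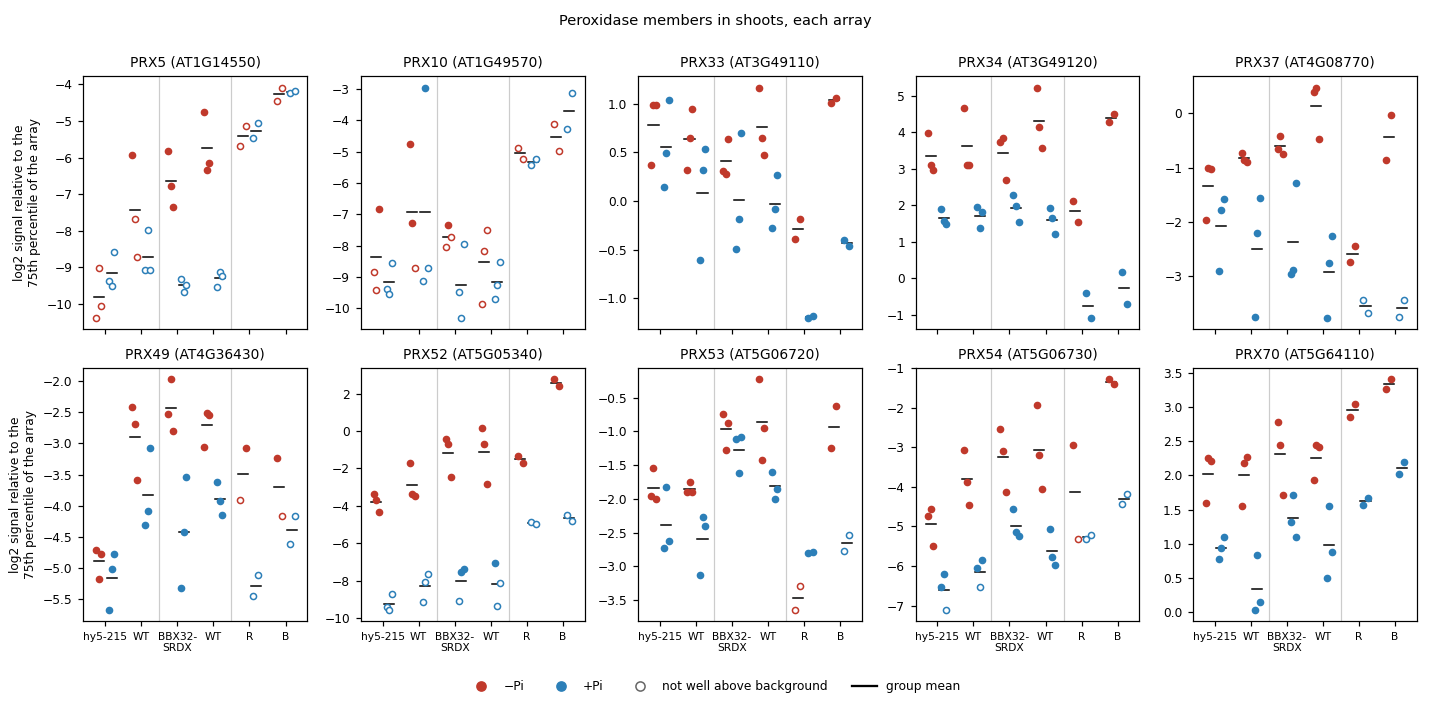
Level of each gene on every shoot array (y axis, log2 signal relative to the 75th percentile of the array), by line or light (x axis), with red for −Pi, blue for +Pi, open symbols for arrays not well above background and black lines for group means. Under B light the −Pi arrays of PRX34 (4.29 and 4.5) stand above its +Pi arrays (0.18 and −0.71), and most symbols of PRX5 and PRX10 are open.

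Direct comparison of line and WT shoots gave no call among these genes. With limma, 0 of the 8 measured genes were called between hy5-215 and WT shoots under −Pi (0.159% of all genes called) and 0 of the 6 under +Pi (0.042%), although 2 and 1 had an unadjusted p under 0.05. PRX49 had −4.72, −5.18 and −4.77 in hy5-215 and −2.42, −2.68 and −3.59 in WT under −Pi, a difference of −1.99 ± 0.39 (adjusted p = 0.105), and −5.67, −5.02 and −4.77 in hy5-215 and −4.31, −4.09 and −3.08 in WT under +Pi (−1.33 ± 0.39, adjusted p = 1.0). Its hy5-215 arrays lay below the WT arrays at both Pi levels, though not beyond the threshold. Between 35S:BBX32-SRDX and WT shoots 0 of the 9 measured genes were called under −Pi (0.103% of all genes) and 0 of the 7 under +Pi (0.0234%), and 0 and 0 had an unadjusted p under 0.05. The difference between line and WT in the Pi response of shoots was called for 0 of the 8 genes that passed the filter in hy5-215 (0% of all genes) and 0 of the 9 in 35S:BBX32-SRDX (0%), with 0 genes at an unadjusted p under 0.05 in either. These counts are not limited to measured genes. PRX52 in both sets, PRX54 in the hy5-215 set and PRX5 in the 35S:BBX32-SRDX set were not well above background on every +Pi array.

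Under B light the 3 measured genes, PRX33, PRX34 and PRX70, rose under −Pi in shoots, where 20.3% of all genes were called. PRX34 had levels of 4.29 and 4.5 under −Pi and 0.18 and −0.71 under +Pi (4.66 ± 0.37, adjusted p = 0.000418). PRX52 had 2.76 and 2.42 under −Pi and −4.48 and −4.84 under +Pi, at least 33-fold higher. PRX33 had 1.01 and 1.06 under −Pi and −0.4 and −0.47 under +Pi (1.47 ± 0.14, adjusted p = 0.000825). PRX70 had 3.26 and 3.4 under −Pi and 2.02 and 2.19 under +Pi (1.23 ± 0.15, adjusted p = 0.00189).

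PRX37, PRX53 and PRX54 were not well above background on either B-light +Pi array. PRX37 had −0.86 and −0.03 under −Pi and −3.76 and −3.44 under +Pi, at least 4.02-fold higher. PRX53 had −1.24 and −0.63 under −Pi and −2.77 and −2.53 under +Pi, at least 2.78-fold higher. PRX54 had −1.29 and −1.4 under −Pi and −4.42 and −4.18 under +Pi, at least 2.16-fold higher. With normexp background correction of these dim arrays PRX33 was not called. The green markers, all 5 well above background, summed to 1365 to 1384 times the 75th percentile in B-light −Pi shoots and 3258 to 3316 times in B-light +Pi shoots, and their part in the responses was not tested.

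Under R light 2 of the 3 measured genes rose in shoots, PRX34 and PRX70, with 4.39% of all genes called. PRX34 had levels of 2.12 and 1.54 under −Pi and −0.42 and −1.08 under +Pi (2.58 ± 0.37, adjusted p = 0.0124). PRX52 had −1.32 and −1.69 under −Pi and −4.88 and −4.99 under +Pi, at least 3.51-fold higher. PRX70 had 2.86 and 3.04 under −Pi and 1.57 and 1.67 under +Pi (1.32 ± 0.15, adjusted p = 0.00639). PRX34 and PRX70 rose under both lights. PRX34 was not called without R −Pi replicate 1 or R +Pi replicate 2. PRX33 passed the adjusted p but not 2-fold (0.9 ± 0.14, adjusted p = 0.0183). PRX53 was the only gene with lower −Pi arrays under R light, −3.64 and −3.29 under −Pi and −2.8 and −2.79 under +Pi, with no −Pi array well above background.

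Set against B light, R-light shoots under −Pi had lower levels of 4 of the 5 genes measured under both lights (PRX33, PRX34, PRX37 and PRX52), with 9.56% of all genes called. PRX52 was at −1.32 and −1.69 under R and 2.76 and 2.42 under B light (−4.1 ± 0.21, adjusted p = 0.000771). PRX34 was at 2.12 and 1.54 under R and 4.29 and 4.5 under B light (−2.57 ± 0.37, adjusted p = 0.00712). PRX53, not well above background under R light, was at least 5.64-fold lower. The 2 arrays of each light were apart for all 3. PRX37 and PRX33 were also lower, at −2.15 ± 0.29 and −1.32 ± 0.14 (adjusted p = 0.00622 and 0.00308). PRX54, which passed the filter through B-light −Pi alone, was at −2.8 ± 0.66, with 1 of the 2 R-light arrays well above background. PRX70 did not pass (−0.38 ± 0.15, adjusted p = 0.137). With normexp PRX33 and PRX37 were not called. Under +Pi, 0 of the 3 measured genes were called with limma (0.205% of all genes), and 2 had an unadjusted p under 0.05, the nearest being PRX33 (−0.76 ± 0.14, adjusted p = 0.0835).

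The difference between R and B light in the Pi response of shoots could be measured in all 4 groups for PRX33, PRX34 and PRX70 only, and 1.46% of all genes were called. PRX34 (−2.08 ± 0.52, adjusted p = 0.103) did not pass, although it did with normexp and when arrays were scaled on the median detected probe, and PRX33 was at −0.56 ± 0.2 (adjusted p = 0.202) and PRX70 at 0.1 ± 0.22 (adjusted p = 0.841). PRX52 and PRX53 passed the threshold, with fitted values of −3.82 ± 0.3 and −2.39 ± 0.34, but no +Pi array of PRX52 and no R-light −Pi or B-light +Pi array of PRX53 was well above background, so these calls set the groups that let the genes pass the filter against background values and show no difference of responses.

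Roots and shoots were compared within the lines. In hy5-215 the Pi response of PRX53 differed between roots and shoots, where 1.31% of all genes were called. PRX5 rose in roots, whereas its shoot levels were −10.37, −9.03 and −10.06 under −Pi and −9.37, −9.51 and −8.59 under +Pi, none well above background. Its response in shoots was thus not measured, and the fitted difference of 4.53 ± 0.81 is no measure of one. PRX53 had −1.96, −1.54 and −2.0 under −Pi and −2.73, −1.82 and −2.62 under +Pi in hy5-215 shoots, a smaller response than in roots by 1.59 ± 0.39 (adjusted p = 0.0435). The PRX53 call was lost without any 1 of 9 of the 12 hy5-215 arrays, and was kept without +Pi shoot replicates 1 and 3 and −Pi shoot replicate 2. With the replicate block PRX34 was added. In 35S:BBX32-SRDX 1 of the 10 genes was called, where 2.56% of all genes were: PRX34 had 3.72, 3.84 and 2.69 under −Pi and 2.27, 1.98 and 1.54 under +Pi in shoots, where it lay higher under −Pi, and 2.68, 2.58 and 2.43 under −Pi and 3.79, 3.26 and 2.94 under +Pi in roots, where it lay lower (−2.25 ± 0.5, adjusted p = 0.0168). Without shoot −Pi replicate 1, shoot −Pi replicate 2 or root +Pi replicate 1 it was not called, and without shoot +Pi replicate 3 PRX49 was called too. The 10 genes include PRX5, PRX10 and PRX52, which were not well above background on every +Pi shoot array of this line.

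Of the 63 other class III peroxidases listed, 62 had a probe. Some of the 63 were among the genes that the study selected together with the 10 genes, and they were not set apart here. The 10 genes were chosen for induction by Pi deficiency in WT roots, so the medians of the 2 lists are descriptions and their gap was not tested. In hy5-215 roots 4 of the 55 that were tested were called, all higher, beside 3.53% of all genes, and their median log2 fold change was 0.15, beside 1.46 for the 10 genes and −0.02 over all genes tested. The 3 largest were AT1G14540 (2.91 ± 0.74, adjusted p = 0.0296), the neighbour of PRX5 annotated as PER4, AT1G34510 (1.57 ± 0.15, adjusted p = 0.000314) and AT4G08780 (1.26 ± 0.27, adjusted p = 0.0137), the neighbour of PRX37. In 35S:BBX32-SRDX roots 3 of 57 were called, beside 3.3% of all genes, AT5G19880 higher (1.79 ± 0.45, adjusted p = 0.0419) and AT2G38390 (−1.36 ± 0.26, adjusted p = 0.0135) and AT5G64120 (−1.29 ± 0.33, adjusted p = 0.0489) lower, with a median of 0.10 beside 0.86 for the 10 genes and 0.02 over all genes. AT5G64120, annotated as PRX71, is the neighbour of PRX70. Probe sequences were not used here, so signal shared between neighbouring or similar copies such as PRX33 and PRX34, PRX53 and PRX54, or PRX37 and AT4G08780 was not tested.

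In shoots of the light set 31 of the other peroxidases were tested. Under −Pi, 9 rose and 1 fell in B light, where 20.3% of all genes were called, and 5 rose in R light, where 4.39% were, with medians of 0.34 and 0.51. These counts include genes that were not well above background under +Pi. Among the largest in B light, AT4G37530 was at least 6.70-fold higher under −Pi, a description only, as no +Pi array was well above background. AT4G37520 rose by 2.84 ± 0.20 (adjusted p = 0.000289) and AT5G64120 by 2.64 ± 0.62 (adjusted p = 0.0169), on the log2 scale. Some peroxidases outside the set therefore also rose under −Pi in B light.

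**Figure D4:**
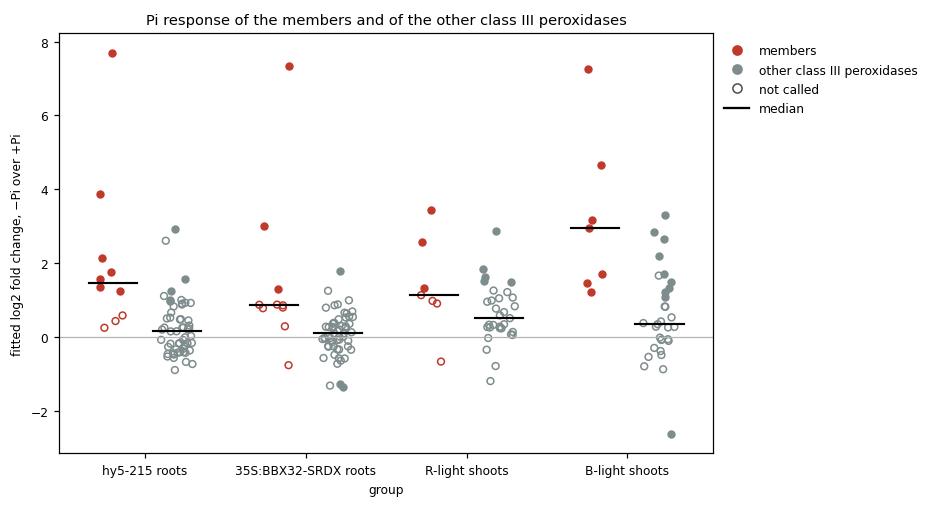
Fitted log2 fold change of −Pi over +Pi (y axis) of the 10 genes (red, left) and the other class III peroxidases (grey, right) that were tested, in hy5-215 roots, 35S:BBX32-SRDX roots, R-light shoots and B-light shoots (x axis); filled symbols were called, open symbols were not, and black lines are medians. In roots the medians are 1.46 and 0.86 for the 10 genes and 0.15 and 0.10 for the other peroxidases, whereas in shoots 4 of the 7 red symbols of each light passed the filter without being measured in both groups, so their medians are not compared.

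A list of 10 genes was drawn up that are known to act with peroxidases at the low-Pi root tip or in the production of reactive oxygen (STOP1, ALMT1, LPR1, LPR2, PDR2, UPB1, RBOHC, RBOHD, RBOHF and EXT3). With limma 0 of the 10 were called in hy5-215 roots and 0 in 35S:BBX32-SRDX roots, with 3 and 4 at an unadjusted p under 0.05, and their medians were 0.12 and 0.08. In B-light shoots, where 20.3% of all genes were called, 4 rose and 1 fell. EXT3, a wall extensin that peroxidases cross-link, rose by 4.65 ± 0.27 (adjusted p = 0.000184), and ALMT1 fell by 2.18 ± 0.60 on the log2 scale (adjusted p = 0.0287). The NADPH oxidase gene RBOHC was at least 3.62-fold higher, a description only, as no +Pi array was well above background. In R-light shoots, with 4.39% of all genes called, EXT3 alone was called (3.44 ± 0.27, adjusted p = 0.00151). Under −Pi, 4 of the 10 were lower and 1 was higher in R than in B light, with 9.56% of all genes called. The largest were RBOHC (at least 6.55-fold lower, with no R-light array well above background), ALMT1 (2.76 ± 0.60, adjusted p = 0.0247) and UPB1, a repressor of peroxidase genes in the root (−2.43 ± 0.43, adjusted p = 0.0130). The counts for B light and for R against B light include RBOHC, whose calls set a group against background values.

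Of 17 genes of lignin synthesis, 0 were called in hy5-215 roots and 0 in 35S:BBX32-SRDX roots with limma, with 6 and 3 at an unadjusted p under 0.05. In B-light shoots 3 of 17 (17.6%) were called, no more than the 20.3% of all genes. CAD5 rose by 1.67 ± 0.16 (adjusted p = 0.000721). CCR2 (at least 5.08-fold) and 4CL2 (at least 1.44-fold, a bound under 2-fold) had no +Pi array well above background, so their calls set a group against background values. In R-light shoots CAD5 alone was called, beside 4.39% of all genes (1.2 ± 0.16, adjusted p = 0.00930). In WT shoots of the 35S:BBX32-SRDX set 4 rose, beside 7.74% of all genes called, the largest being CCR2 (2.94 ± 0.61, adjusted p = 0.00995), PAL1 (2.33 ± 0.40, adjusted p = 0.00412) and 4CL2 (2.15 ± 0.33, adjusted p = 0.00229).

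Over the 12 root groups, centred on the mean of each set, the patterns most alike were those of PRX37 and PRX49 (Pearson's r = 0.99) and of PRX5 and PRX52 (r = 0.98), and the least alike those of PRX10 and PRX34 (r = −0.32). The groups behind these values share plants, arrays and the Pi response that chose the genes, so they describe the set and carry no p.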

How the data were processed

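Total RNA of roots and shoots was hybridised to 64 one-colour Agilent arrays, each read as the processed signal intensity that the authors deposited per spot (Feature Extraction, version 9.1.3.1 in the labels, 9.1.3.1 or 11.5.1.1 in the file headers). The authors also deposited a table of natural log values of the same arrays. It matched the scanner values in both white-light sets, and its scale in the light set was not settled, so it served as an alternative only. Of 43603 probes, 36163 (82.9%) matched a gene of the RefSeq annotation TAIR10.1.

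Levels were log2 of the processed signal minus the 75th percentile of each array, and the brightest probe stood for a gene. Genes with signal well above background on every array of 1 or more groups were tested with limma 3.58.1 in R 4.3.3, over the 4 groups of a set and organ (both organs of a line for organ differences), with Benjamini-Hochberg adjustment. Calls needed an adjusted p under 0.05 and more than 2-fold. The scripts were tested on simulated data. All 10 genes are named, with values per array where they were called, and up to 3 called genes with the largest change per other list. The members and lists were chosen with earlier results of these data known. Same-numbered arrays of an organ shared a slide in all 3 sets. In the white-light sets they deviated together (lowest correlation of deviations 0.145), so the numbers paired them. In the light set these correlations were positive too but lower, with means of 0.21 in roots and 0.18 in shoots and a lowest of 0.0255. The main tests did not use this pairing, which entered only as the replicate block among the alternatives. The methods give biological replicates, 3 in the white-light sets and 2 in the light set. The number of arrays limits the precision. Alternatives were quantile normalization, scaling to the median of detected probes, normexp on the median spot signal with an offset of 50, the mean of all probes, no filter, the replicate block, only the groups compared, and leaving out each array. For the root descriptions the last was chosen after seeing the data. Promoter and probe sequences were not analysed here.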

Additional observations from a re-analysis of the deposited data

Results flagged for a closer look

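A total of 5 differences between organs or lights in the response to Pi deficiency passed the threshold of their own limma test, each as a log2 difference of responses. The response of PRX53 in hy5-215 was larger in roots than in shoots by 1.59 ± 0.39 (SE, adjusted p = 0.0435), and this call was lost without any 1 of 9 of the 12 hy5-215 arrays. In 35S:BBX32-SRDX the response of PRX34 in roots minus that in shoots was −2.25 ± 0.5 (adjusted p = 0.0168), and the call was lost without shoot −Pi replicate 1, shoot −Pi replicate 2 or root +Pi replicate 1. The other 3 rest on groups at background and measure no difference of responses. PRX5 in hy5-215 had a fitted value of 4.53 ± 0.81 for roots against shoots, with no shoot array well above background. Between R-light and B-light shoots, PRX52 had a fitted value of −3.82 ± 0.3, lost without B −Pi replicate 1, B −Pi replicate 2 or R +Pi replicate 1, and PRX53 one of −2.39 ± 0.34, lost without any 1 of the 8 arrays.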

How the results depend on the processing

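No called value of these genes changed sign under any alternative run. Of the root differences, which carry no call, PRX33 in B-light roots turned to −0.06 with normexp, PRX34 in the WT roots of the 35S:BBX32-SRDX set to 0.06 with median scaling, and PRX34 and PRX54 in R-light roots changed sign in the table of the authors. Over the called genes 334 of 358 values under other settings, and 222 of 260 with 1 array left out, kept direction and call, and the others fell short of the threshold. Of the root differences, 551 of 600 under other settings moved by less than 1 SD of the replicates. The counts that follow are over all genes that passed the filter, those at background in 1 of the groups included. In hy5-215 shoots 1 gene was called, against 2 with median scaling and 4 with the replicate block. In 35S:BBX32-SRDX shoots 3 were called, against 5 with the replicate block. For roots against shoots in hy5-215, 2 were called, against 1 with median scaling, 4 with normexp, 3 with the replicate block and 1 without the filter, and between 1 and 2 with an array left out. For 35S:BBX32-SRDX this count was 1, and between 0 and 2 with an array left out. In B-light shoots 7 were called, against 3 with normexp, and R-light shoots lay below B-light shoots under −Pi at 6 genes, against 2 with normexp. For R against B light in the Pi response, 2 were called, against 4 with median scaling, 0 without the filter, and between 0 and 2 with an array left out. The replicate block also called 5 in WT shoots of the hy5-215 set and 7 in those of the 35S:BBX32-SRDX set. The cause of these shifts was not tested. Median scaling shifted the median of all genes by 0.646 on the log2 scale in B-light shoots. Signal over background limits the light set, where many +Pi levels are bounds.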
